A study of Mus musculus with 12 samples.

Results

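Binding of the estrogen receptor ERα and of the progesterone receptor PR was compared across the genome of wild-type mouse mammary glands. The comparison used 4 of the 12 libraries of the study, 2 ChIP-seq libraries precipitated with an antibody against ERα and 2 with an antibody against PR. ChIP-seq sequences the DNA that is cross-linked to a precipitated protein, and a peak is a stretch with more fragments than its surroundings predict. All 4 libraries came from mice with wild-type Esr1 (WT), raised to 8 weeks of age, implanted with E2 and P4 (estradiol and progesterone) and sampled 4 days later. Another 4 libraries, 2 for each receptor, came from mice with the Y541S mutation of Esr1 and the same implants, and served to look at the WT regions in glands that had not defined them. The D542G libraries were not analysed here. Each receptor and genotype had 2 biological replicates, and the number of animals in each was not given. Every library, WT and Y541S, was from hormone-implanted mice, so binding without added hormone was not measured. The series title speaks of luminal cells, but the sample labels name whole mammary glands, which also contain fat, stroma, blood vessels and other epithelium. A peak could therefore not be assigned to a cell type, and more cells of a type could not be told apart from more binding per cell. Each receptor was precipitated with 1 antibody, so differences between receptors and between antibodies cannot be told apart.

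ERα and PR are steroid receptors that act as transcription factors in the nucleus once bound by their hormone. ERα binds estrogen response elements, palindromes of GGTCA separated by a short spacer, and PR shares with the glucocorticoid receptor a different palindrome built on the core ACA. In the mammary gland both receptors are found mainly in hormone-sensing luminal cells, where estrogen induces PR and PR drives paracrine signals such as RANKL, the product of Tnfsf11, to neighbouring cells. ERα is also present in stromal and fat cells of the gland.

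Overlapping peaks of the 4 WT libraries were merged into 196777 regions. A region was called ERα-only with a peak in both ERα and in no PR library, PR-only in the reverse case, and common with a peak in all 4 libraries. There were 5267 ERα-only, 18169 PR-only and 13660 common regions. Another 131870 regions had a peak in 1 library only. The rest were mixed: 11358 regions had a peak in 1 library of each receptor, 5675 in both ERα libraries and 1 PR library, and 10778 in both PR libraries and 1 ERα library. Of the 5675 regions, 4543 had their PR peak in replicate 2 and 1132 in replicate 1. Of the 10778 regions, 8293 had their ERα peak in replicate 1 and 2485 in replicate 2. Absence of a peak depends on single libraries. Without PR replicate 2, the library with the longest list, 9929 regions were ERα-only, and without ERα replicate 2 there were 21873 common regions. When 1 library of a receptor is left out its own class needs a single peak, and it then held 35960 to 36945 regions for ERα and 52648 to 55976 for PR.

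Promoter windows were searched for response elements of both receptors. The window from 250 bases before to 50 after the transcription start was taken from RefSeq (GRCm38.p6, the assembly equivalent to mm10) for 21238 starts of 17492 coding genes, 79.9% of the 21887 coding genes used here. A peak of both ERα and of no PR library covered 264 windows, the reverse held for 291, and 4716 had a peak of all 4 libraries. Both strands were searched for the estrogen response element, GGTCA and TGACC separated by 3 bases of any kind, and for the progesterone and glucocorticoid response element, GNACA and TGTNC with the same spacing. The estrogen element was in 2 of the 264 ERα-only windows (0.758%, 95% Wilson interval 0.208% to 2.72%), in 0 of the 291 PR-only windows (upper end 1.303%) and in 11 of all 21238 windows (0.0518%), of which 8 had no peak of any library. The progesterone element was in 7 of the 291 PR-only windows (2.41%, 1.17% to 4.88%), in 2 of the 264 ERα-only windows (0.758%, 0.208% to 2.72%) and in 94 of all windows (0.443%), of which 54 had no peak. For both elements the intervals of the ERα-only and PR-only windows overlapped. Only 14 of the 4716 windows with peaks of all 4 libraries held it (0.297%). These small counts are descriptions of letters in short windows and show no site in use.

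The 8 windows below are examples of where the elements lie in bound promoters, each 300 bases long and written 5′ to 3′ along its gene, with the matching element in capitals. Lmntd1 (chr6:145434876-145435175, minus strand) and Gm4606 (chr14:72863444-72863743, minus strand) are the 2 ERα-only windows with the estrogen element. Abcb5 (chr12:118966372-118966671, minus strand) and Tinagl1 (chr4:130174753-130175052, minus strand) are the best-ranked PR-only windows with the progesterone element. Map3k6 (chr4:133240568-133240867, plus strand) and Slc10a6 (chr5:103629354-103629653, minus strand) are the best-ranked windows with that element and a peak in all 4 libraries. Mt1 (chr8:94178839-94179138, plus strand), a metallothionein gene long known as hormone-induced, and Adipoq (chr16:23146286-23146585, plus strand), which encodes the fat-cell hormone adiponectin, were chosen after their values were seen. Mt1 shows the progesterone element under peaks of all 4 libraries, and Adipoq, all in lower case, shows an ERα-only window without either element.

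Lmntd1: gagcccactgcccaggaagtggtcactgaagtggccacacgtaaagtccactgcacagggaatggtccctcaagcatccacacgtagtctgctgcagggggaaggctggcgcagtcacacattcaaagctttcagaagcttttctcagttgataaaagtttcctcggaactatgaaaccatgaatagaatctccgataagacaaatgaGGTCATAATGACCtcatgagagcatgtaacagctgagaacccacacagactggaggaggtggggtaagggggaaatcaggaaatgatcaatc
Gm4606: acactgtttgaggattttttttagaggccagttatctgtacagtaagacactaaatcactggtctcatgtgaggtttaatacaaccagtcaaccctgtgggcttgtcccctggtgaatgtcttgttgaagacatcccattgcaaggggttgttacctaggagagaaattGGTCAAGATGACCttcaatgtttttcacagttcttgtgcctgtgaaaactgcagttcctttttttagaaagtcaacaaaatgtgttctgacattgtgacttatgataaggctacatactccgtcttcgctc
Abcb5: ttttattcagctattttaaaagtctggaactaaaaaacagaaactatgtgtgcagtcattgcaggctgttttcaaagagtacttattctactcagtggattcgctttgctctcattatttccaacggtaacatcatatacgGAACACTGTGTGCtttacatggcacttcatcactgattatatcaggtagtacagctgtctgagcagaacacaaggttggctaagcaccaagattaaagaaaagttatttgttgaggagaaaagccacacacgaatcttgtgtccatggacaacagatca
Tinagl1: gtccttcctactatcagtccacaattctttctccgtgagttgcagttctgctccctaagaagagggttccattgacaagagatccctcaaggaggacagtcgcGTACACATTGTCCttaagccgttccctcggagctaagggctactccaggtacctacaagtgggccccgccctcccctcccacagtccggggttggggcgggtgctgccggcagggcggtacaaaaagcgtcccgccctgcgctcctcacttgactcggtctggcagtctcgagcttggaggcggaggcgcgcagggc
Map3k6: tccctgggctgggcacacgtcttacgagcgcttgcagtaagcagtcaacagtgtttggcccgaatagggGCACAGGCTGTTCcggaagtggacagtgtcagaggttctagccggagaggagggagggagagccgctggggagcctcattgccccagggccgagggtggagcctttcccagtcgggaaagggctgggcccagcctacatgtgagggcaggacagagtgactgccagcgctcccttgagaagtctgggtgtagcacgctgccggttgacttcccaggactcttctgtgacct
Slc10a6: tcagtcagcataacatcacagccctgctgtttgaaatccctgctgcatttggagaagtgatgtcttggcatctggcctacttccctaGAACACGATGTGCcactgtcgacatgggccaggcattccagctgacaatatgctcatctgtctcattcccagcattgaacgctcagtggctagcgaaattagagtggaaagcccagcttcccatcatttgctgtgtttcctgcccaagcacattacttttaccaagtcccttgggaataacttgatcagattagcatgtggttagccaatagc
Mt1: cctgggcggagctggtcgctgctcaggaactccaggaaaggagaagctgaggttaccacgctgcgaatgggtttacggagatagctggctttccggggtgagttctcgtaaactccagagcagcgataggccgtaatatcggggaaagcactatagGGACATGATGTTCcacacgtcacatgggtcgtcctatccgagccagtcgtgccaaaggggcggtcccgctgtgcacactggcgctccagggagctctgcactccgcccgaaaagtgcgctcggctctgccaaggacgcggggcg
Adipoq: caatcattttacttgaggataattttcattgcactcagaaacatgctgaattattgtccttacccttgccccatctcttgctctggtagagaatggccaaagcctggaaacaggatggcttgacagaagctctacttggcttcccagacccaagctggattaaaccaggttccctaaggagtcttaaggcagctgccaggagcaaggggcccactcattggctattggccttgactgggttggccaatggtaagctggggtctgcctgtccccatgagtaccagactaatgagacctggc

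The deposited fold enrichment, a ratio of the coverage at a peak's summit to its local expectation, was set beside each window. Each window was given the highest fold among the peaks overlapping it, and the summit of such a peak can lie outside the window. Over the Lmntd1 window the fold was 5.69 and 4.38 in ERα replicates 1 and 2, with no PR peak. Over Abcb5 it was 8.71 and 11.9 in PR replicates 1 and 2, with no ERα peak. Of the 14 windows with the progesterone element and a peak in all 4 libraries, 6 had both PR values above both ERα values, 0 had the reverse, and the other 8 overlapped. Mterf2 and Zfp473 each gave 2 of the 14 windows, with the same values. This count was not made over all 4716 windows with peaks of all 4 libraries, so a tie to the element is not shown. Over all windows with a peak, the median fold was 3.93 and 4.26 in the ERα libraries and 3.51 and 5.19 in the PR libraries. The 3 windows printed here are among the 6. Map3k6 had 5.62 and 6.21 for ERα against 10.7 and 9.54 for PR. Slc10a6 had 5.59 and 5.43 against 9.10 and 11.3. Mt1 had 4.28 and 5.31 against 11.2 and 12.6. The fold is the authors' value and is not scaled between libraries, so these are peak values set side by side without a test.

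Half-sites, the single arms of these palindromes, were counted in the same way. TGTTCT, a half-site of the progesterone element, was in 61 of the 291 PR-only windows (21.0%, 16.7% to 26.0%), in 29 of the 264 ERα-only windows (7.76% to 15.3%) and in 3445 of all windows (16.2%). The 10146 windows without a peak held it in 2127 cases (20.96%, 20.2% to 21.8%), a share like that of the PR-only windows. AGGTCA, a half-site of the estrogen element that many other nuclear receptors also bind, was in 41 ERα-only windows (15.5%, 11.7% to 20.4%), in 48 PR-only windows (16.5%, 12.7% to 21.2%), in 1791 windows without a peak (17.7%) and in 3125 of all windows (14.7%). Base composition moved with these classes. Windows with peaks of all 4 libraries held a median of 61.3% G and C and 23.0 CpG dinucleotides, ERα-only windows 59.3% and 15.5, PR-only windows 57.7% and 13.0, and the windows without a peak 49.7% and 4.00. The part of base composition in the motif shares was not tested.

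ERα peaks lay at gene ends more often than PR peaks. Gene ends here are the 1 kb on each side of a coding gene's first and last base, since the gene table gave no strand. The share of peaks there was 18.2% and 19.4% in ERα replicates 1 and 2, and 12.4% and 14.8% in PR replicates 1 and 2. The receptors did not overlap: the mean was 18.8% ± 0.794 (SD, n = 2) for ERα and 13.6% ± 1.68 (SD, n = 2) for PR, a difference of 5.19 percentage points (SE 1.32). It was 5.82 within replicate 1 and 4.57 within replicate 2. The two-sided exact permutation test gave p = 0.33, the smallest that 2 libraries against 2 allow, so no library comparison here could pass a threshold of 0.05. Peaks outside genes went the other way, with 36.6% and 35.2% for ERα and 39.1% and 38.0% for PR (difference -2.65 points, SE 0.923, exact p = 0.33). The receptor lists also differed in length, with 72566 and 64488 ERα peaks against 82982 and 93491 PR peaks, a log2 difference of -0.36 (SE 0.12, exact p = 0.33). That difference was not separable from depth. Recovered from the deposited values, background coverage was 2.39 and 1.303 in the ERα libraries, and 2.68 and 0.927 in the PR libraries. With coverage scaled to the shallowest library, 47737 and 62336 ERα peaks and 46737 and 93491 PR peaks remained, and the receptors overlapped. Median peak width was 262 and 242 bp for ERα against 260 and 312 bp for PR, and these overlapped (exact p = 0.667).

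The gene-end share depended on a peak's rank in both receptors. The strongest peaks were distal in every library. Of the 100 peaks with the highest −log10 p, 4%, 4%, 4% and 3% lay at gene ends in ERα replicates 1 and 2 and PR replicates 1 and 2, and 77% to 87% overlapped peaks of both libraries of the other receptor. Outside genes lay 60% and 57% of these 100 in the ERα libraries and 49% and 52% in the PR libraries. That order was the reverse of the whole lists. Gene-end peaks came next in the lists. With each list cut into 10 equal parts by strength, they made up 37.9% of the first part in ERα replicate 2. In ERα replicate 1 they were 18.0% of the first part and 33.0% of the next. In PR replicate 2 the same parts gave 11.7% and 25.03%, and in PR replicate 1 the first part gave 4.78%. So the replicates of a receptor differed by more than 1.5 times in the first part of the list. In every library, overlap with the other receptor was also lower in the last part than in the first.

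**Figure D1:**
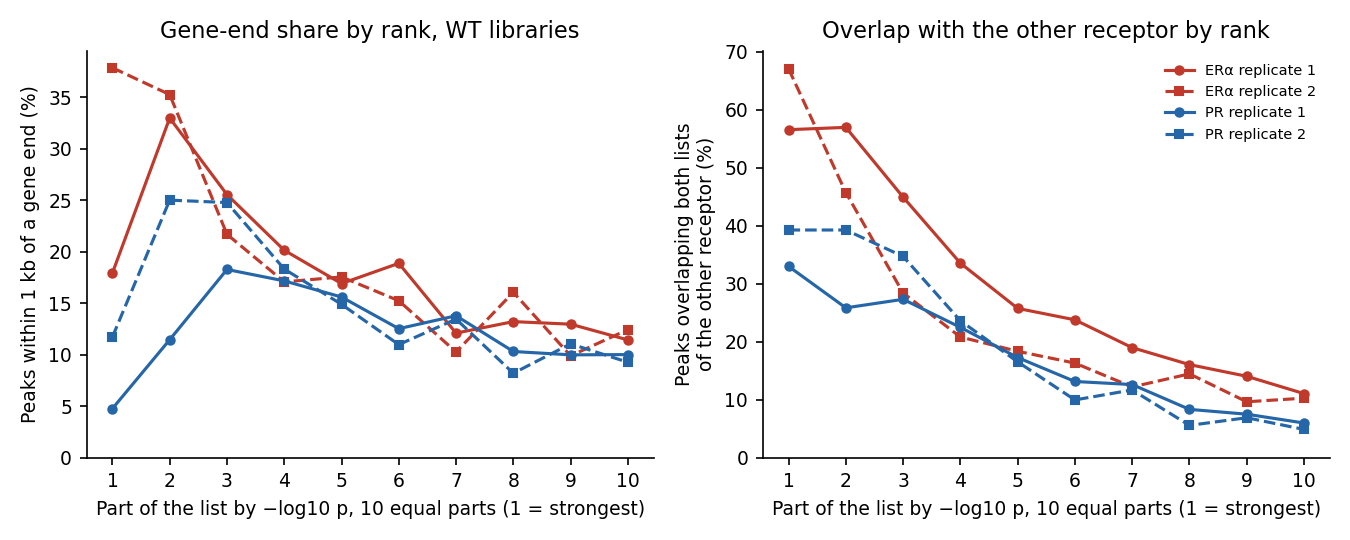
Each WT list was cut into 10 equal parts by −log10 p, with the strongest peaks at 1 on the x axis. The left panel plots the percentage of peaks within 1 kb of a gene end and the right panel the percentage overlapping peaks of both libraries of the other receptor, with 1 line per library; ERα replicate 2 starts at 37.9% at gene ends and PR replicate 1 at 4.78%.

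The region classes differed in position more than the whole lists did. At gene ends lay 39.8% of the common regions (95% Wilson interval 39.0% to 40.6%), 10.9% of the ERα-only regions (10.1% to 11.8%) and 4.65% of the PR-only regions (4.35% to 4.97%). PR-only regions were inside genes in 52.6% of cases, ERα-only regions in 46.5% and common regions in 30.4%. Outside genes the shares were 42.7%, 42.5% and 29.8%. The median distance to the nearest gene end was 21.9 kb for PR-only, 18.7 kb for ERα-only and 4.55 kb for common regions. Common regions were wider, at a median of 781 bp against 413 and 417 bp for ERα-only and PR-only regions. Regions merged from 4 peaks are wider by construction. The single peaks were wider too. In the ERα libraries their median was 459 and 402 bp at common regions against 319 and 268 bp at ERα-only regions. In the PR libraries it was 380 and 580 bp at common regions against 295 and 355 bp at PR-only regions. A wide peak meets peaks of other libraries more easily, so this difference is also favoured by the way the classes were set. Intervals on shares here cover counting error alone.

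The 20000 strongest peaks of each list gave another picture for ERα. They formed 4596 ERα-only, 8268 PR-only and 2637 common regions. Gene ends held 30.2% of these ERα-only regions, against 3.75% of the PR-only and 28.1% of the common regions. In the full lists a PR peak overlapped 68.2% of the 4596 ERα-only regions, and peaks of both PR libraries overlapped 40.1%. An ERα peak overlapped 44.2% of the 8268 PR-only regions, and both ERα libraries 9.31%. Thus most regions that were ERα-only among the strongest peaks carried a PR peak further down the PR lists. PR-only regions had the lowest gene-end share of the classes under either way of counting, with 3.75% and 4.65%. The share of the genome that lies at gene ends was not computed, so these values do not show avoidance. The ERα-only share also rested on PR replicate 2: without that library it was 23.4%.

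**Figure D2:**
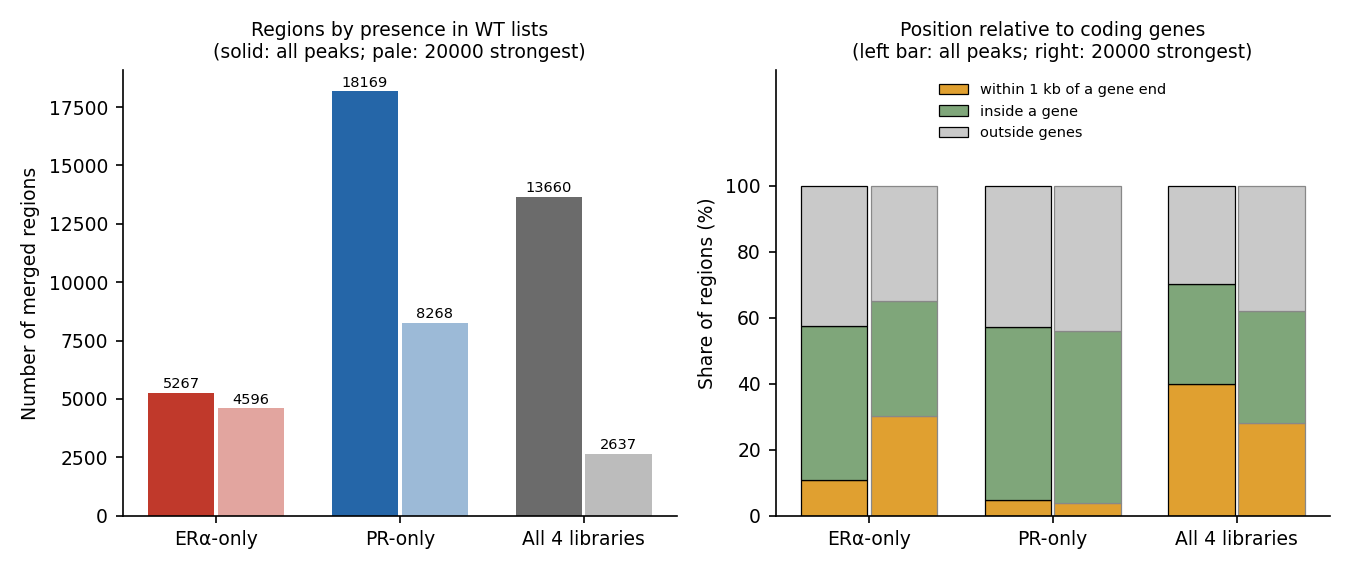
The left panel counts merged WT regions in each class, for all deposited peaks (solid) and for the 20000 strongest of each list (pale). The right panel gives the percentage of regions at gene ends, inside genes and outside genes, with all peaks in the left bar of each pair; the gene-end share of ERα-only regions is 10.9% on the left and 30.2% on the right.

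Regions of a single receptor were weaker than common regions but included strong peaks. Ranks are given as a percentage of the list from its top. ERα-only regions had a median rank of 32.2% and 38.2% in ERα replicates 1 and 2, against 19.3% and 18.6% for common regions. PR-only regions ranked at 29.8% and 31.9% in the PR libraries, and common regions at 28.3% and 19.5%. In PR replicate 1 the medians of PR-only and common regions were thus close. Among the 1000 strongest peaks of a list were 192 and 166 ERα-only regions in the ERα libraries, and 92 and 91 PR-only regions in the PR libraries. With a −log10 p of at least 10 in both libraries of a receptor, 3123 ERα and 12177 PR regions remained. Of these, 518 of the ERα regions (16.6%, 15.3% to 17.9%) had no PR peak and 4195 of the PR regions (34.5%, 33.6% to 35.3%) had no ERα peak. At a −log10 p of at least 50 the shares were 31 of 313 (9.90%, 7.07% to 13.7%) and 83 of 947 (8.76%, 7.13% to 10.7%), with intervals that overlapped. The larger share of PR regions without the other receptor was thus not seen among the strongest.

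Most regions of 1 receptor lay within a few kilobases of a peak of the other. The nearest PR summit was at a median of 2.59 kb from an ERα-only region, within 1 kb for 23.4% and within 5 kb for 69.8% of them. The nearest ERα summit was 4.09 kb from a PR-only region, within 1 kb for 13.7% and within 5 kb for 56.1%. More PR than ERα peaks were there to be near, so the distances are not comparable between the classes. Lists this long place peaks near many positions of the genome. The shares for random positions were not computed, so these values do not show that regions of 1 receptor lie nearer than others to the other receptor.

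In common regions the summits of the receptors lay a median of 69 to 91 bp apart. Overlapping peaks have close summits by construction, and the offset that overlap alone gives was not computed. Over the 9843 common regions with a single peak in every library, the summits of the ERα replicates lay a median of 78 bp apart and those of the PR replicates 58 bp apart. Between the receptors the medians were 69 bp (ERα 1 and PR 1), 73 bp (ERα 1 and PR 2), 91 bp (ERα 2 and PR 1) and 87 bp (ERα 2 and PR 2). The offsets between receptors thus spanned the offset between the ERα replicates, and all were above that between the PR replicates. At gene ends all 6 medians were larger, from 92 to 121 bp, than elsewhere, from 46 to 80 bp. Peak strength was more alike within a receptor than between receptors. Spearman's rho of −log10 p across the 13660 common regions was 0.507 between the ERα replicates, 0.643 between the PR replicates and 0.0513 to 0.238 between receptors. Regions are not independent replicates, and libraries share peak width and local chromatin. Ranked in the top 10% of both ERα lists and below the top 50% of both PR lists were 61 common regions, and 127 showed the reverse, beside 645 in the top 10% of all 4 lists.

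The Y541S libraries had no part in defining the WT classes and were used to look at them again. WT ERα-only regions overlapped a peak in 75.5% and 66.8% of cases in the Y541S ERα libraries and in 28.0% and 29.6% in the Y541S PR libraries. WT PR-only regions overlapped a peak in 32.4% and 19.2% in the Y541S ERα libraries and in 94.4% and 84.0% in the Y541S PR libraries. The 2 receptors did not overlap for either class. The mean over ERα-only regions was 71.2% ± 6.22 in ERα and 28.8% ± 1.10 in PR libraries (SD, n = 2 each), a difference of 42.3 points (SE 4.46, exact p = 0.33). For PR-only regions they were 25.8% ± 9.31 and 89.2% ± 7.31 (SD, n = 2 each), a difference of -63.4 points (SE 8.37, exact p = 0.33). Common regions had a peak in 89.5% to 98.3%. The deposited Y541S lists held 106926 and 105612 peaks for ERα and 113695 and 101382 for PR, but the stricter minimum of 5 on −log10 p kept 48996 and 37161 ERα peaks against 90495 and 68774 PR peaks. With the 20000 strongest peaks of each list, in WT and Y541S alike, the differences were 69.2 and -74.8 points. The full pattern of both libraries of 1 receptor and none of the other was found again for 31.1% of the ERα-only regions (29.8% to 32.3%) and 46.6% of the PR-only regions (45.8% to 47.3%). With 1 WT library left out, the differences were 8.76 to 37.4 points for ERα-only regions. The lowest was without ERα replicate 1, where a single ERα peak defines the class. The highest was without PR replicate 1, where peaks of both ERα libraries were still required. For PR-only regions the smallest was -30.9 points, without PR replicate 2, where a single PR peak defines the class. No Y541S peak at all was found at 11.5% of the ERα-only and 3.25% of the PR-only regions. The 518 strong ERα-only regions had a peak in 99.6% and 96.5% in the Y541S ERα and in 21.4% and 18.5% in the Y541S PR libraries. The 4195 strong PR-only regions had one in 42.2% and 19.5% for ERα and in 99.9% and 98.6% for PR.

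**Figure D3:**
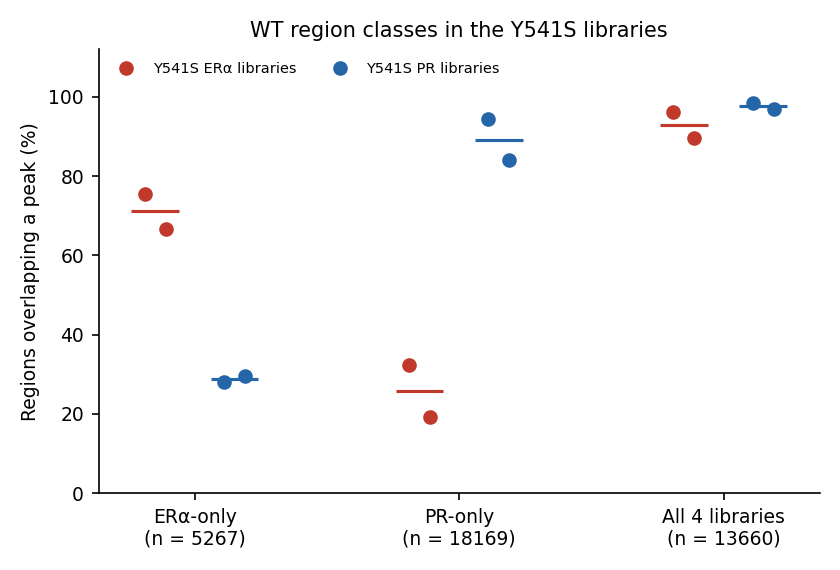
Points give, for each class of WT regions on the x axis, the percentage that overlapped a peak in each of the 4 Y541S libraries, and lines give the mean of 2 libraries. ERα-only regions sit at 75.5% and 66.8% in ERα against 28.0% and 29.6% in PR libraries, and PR-only regions at 32.4% and 19.2% against 94.4% and 84.0%.

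The ERα-only regions best ranked in both libraries were mostly distal. The first, chr2:167760085-167761316, lay 70.3 kb from Cebpb, a transcription factor of fat cells and of mammary development, and had folds of 11.5 and 14.0 in ERα replicates 1 and 2. A region 51.9 kb from Rgs3, a regulator of G protein signalling (chr4:62754524-62755323), had 17.9 and 17.0. Inside Zfp423, a zinc finger factor of preadipocytes, the region chr8:87702647-87703662 had 17.6 and 17.0. It was 1 of 5 ERα-only regions of Zfp423, which had no PR-only region. A region 25.7 kb from Cmklr1, the receptor of the adipokine chemerin (chr5:113675834-113676423), had 16.5 and 16.1. At the end of Nlrp3, an inflammasome sensor, chr11:59541101-59542661 had 14.4 and 14.9. The other 5 of the first 10 were closest to Gm1322, Gm46240, Cryge, Creb5 and Chmp4b. Counted within 50 kb, several of these genes had more PR-only than ERα-only regions. Creb5 and Chmp4b had 5 and 1 each, Nlrp3 3 and 2, and Cebpb 2 and 1. Rgs3, Cmklr1, Cryge, Gm1322 and Gm46240 had more ERα-only regions, as Zfp423 did. The regions closest to Cebpb and Rgs3 lay beyond 50 kb and are not in those counts. All 10 regions had a peak in both Y541S ERα libraries. In at least 1 Y541S PR library 4 of the 10 had one, and in both 0 had one. Of all ERα-only regions, 57.6% had a peak in both Y541S ERα libraries. In both Y541S PR libraries 16.3% of them had one, and in the single Y541S PR libraries 28.0% and 29.6%. The share with a peak in at least 1 Y541S PR library was not computed, so the 4 of 10 have no like value beside them.

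The best-ranked PR-only regions were at other genes. The first lay inside Ccdc141 (chr2:77117962-77118639) with folds of 19.0 and 22.2 in PR replicates 1 and 2. A region 97.4 kb from Nt5e, which encodes the ecto-enzyme CD73 (chr9:88229942-88230484), had 18.7 and 20.4. One 70.8 kb from Fn1, the gene of fibronectin (chr1:71723767-71724303), had 15.2 and 16.1. One inside Pde2a, a cyclic nucleotide phosphodiesterase (chr7:101475759-101476217), had 13.3 and 16.3. The other 6 were closest to Lsamp, Zfp746, Os9, Fryl, Taf8 and Cytip. All 10 regions had a peak in both Y541S PR libraries. In at least 1 Y541S ERα library 9 of the 10 had one, and in both 5 had one. Of all PR-only regions, 82.7% had a peak in both Y541S PR libraries. In both Y541S ERα libraries 10.9% of them had one, and in the single Y541S ERα libraries 32.4% and 19.2%. The share with a peak in at least 1 Y541S ERα library was not computed, so the 9 of 10 have no like value beside them. The common regions best ranked in all 4 libraries lay closest to Gatb, Nln, Lifr, Arid1b, Tmprss12 and the agouti gene a. The first of them, inside Gatb (chr3:85579615-85580369), had folds of 20.8 and 17.3 for ERα and 16.3 and 15.4 for PR.

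To set regions beside genes, links were drawn from each region to the coding genes whose span lay 50 kb away or less. Of 21887 coding genes, 7126 had an ERα-only region (32.6%), 13466 a PR-only region (61.5%) and 14461 a common region (66.1%). An ERα-only but no PR-only region was linked to 1456 genes (6.65%), the reverse held for 7796 (35.6%), 5670 had both (25.9%) and 6965 neither (31.8%). Without PR replicate 2, 11552 genes had an ERα-only region, and without an ERα library 16388 to 17177. Long genes and genes in dense neighbourhoods have more chances of a link: the median gene span was 26.4 kb for genes with both and 8.86 kb for genes with neither.

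The genes of the receptors were linked to regions of both. Esr1, which encodes ERα, had 4 ERα-only, 4 PR-only and 6 common regions, or 2, 6 and 1 among the 20000 strongest peaks of each list. The 6 common regions leaned different ways. At chr10:4631872-4632392 inside Esr1 the folds were 12.3 and 4.88 for ERα against 3.14 and 5.30 for PR, so that the receptors overlapped. At chr10:4624633-4625827 inside Esr1 they were 3.52 and 3.24 for ERα against 10.4 and 7.94 for PR. Pgr, which encodes PR, had no ERα-only region, 1 PR-only and 1 common region in the deposited lists. Among the 20000 strongest peaks the order was the opposite, with 3 ERα-only regions of Pgr and none of the other classes. The common region lay just outside Pgr (chr9:8970182-8971029), with folds of 13.6 and 14.0 for ERα and 3.70 and 5.51 for PR. Both ERα values were above both PR values there.

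Greb1, a classic estrogen-induced gene and coregulator of ERα, had 3 ERα-only, 3 PR-only and 11 common regions, or 2, 1 and 7 among the 20000 strongest peaks. The region with the highest ERα folds, chr12:16790326-16791079 inside Greb1, had 20.2 and 19.9 for ERα and 7.91 and 8.68 for PR. Another, chr12:16760242-16760858, had 12.0 and 15.8 against 4.06 and 5.16. The reverse stood only 1.0 kb outside Greb1, at chr12:16802035-16802742, with 3.68 and 4.71 for ERα against 11.4 and 11.4 for PR. Neighbouring regions of 1 gene thus leaned to different receptors.

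Tnfsf11, Areg and Wnt4, paracrine genes downstream of the receptors, were linked to PR-only and not to ERα-only regions in the deposited lists. Among the 20000 strongest peaks Wnt4 kept 2 PR-only regions, Tnfsf11 had 1 common region alone, and Areg had none of the 3 classes. Tnfsf11, which encodes RANKL, had no ERα-only, 4 PR-only and 2 common regions. Both common regions leaned to PR: chr14:78346760-78347307, 39.0 kb outside Tnfsf11, had 4.42 and 5.65 for ERα against 14.3 and 19.2 for PR, and chr14:78341312-78341894 had 4.13 and 4.34 against 14.9 and 14.4. Areg, which encodes the EGF-family ligand amphiregulin, had 3 PR-only regions and neither of the other classes. Its strongest by rank, chr5:91156450-91157109, had PR folds of 3.85 and 5.20. Wnt4, a WNT ligand, also had 3 PR-only regions alone, the first at chr4:137255485-137256057, 21.9 kb outside Wnt4, with 6.18 and 9.38. These counts do not mean an absence of ERα peaks: within 50 kb of Areg the libraries had 2, 3, 9 and 6 peaks, and around Wnt4 9, 6, 10 and 15, in ERα replicates 1 and 2 and PR replicates 1 and 2.

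**Figure D4:**
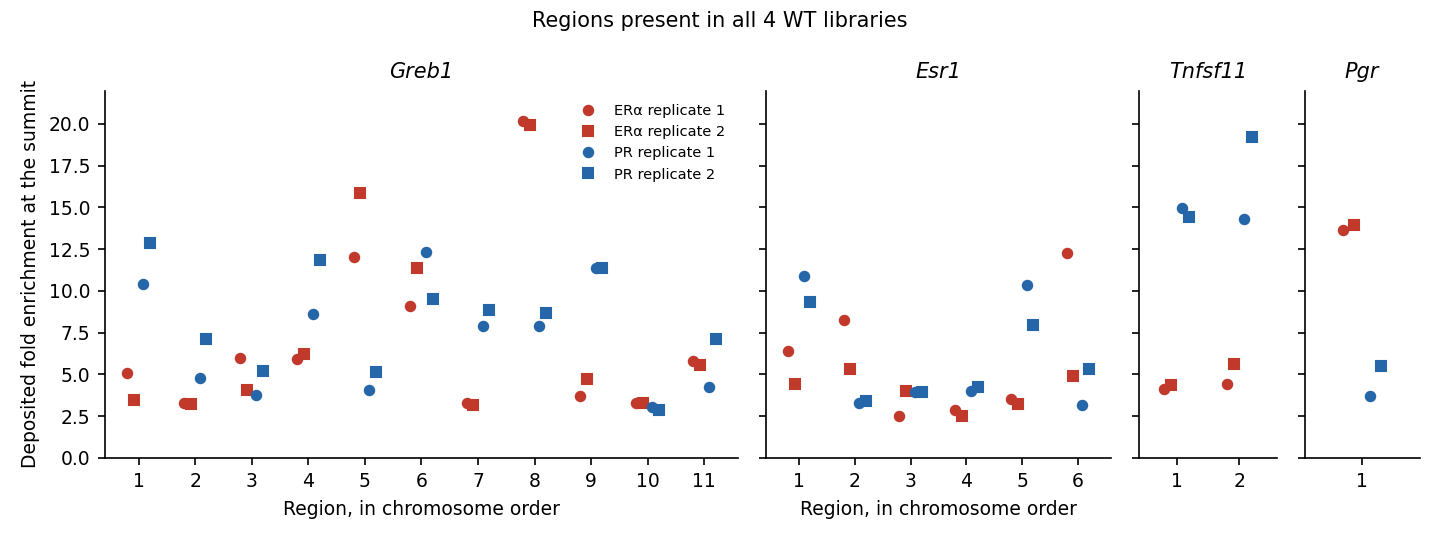
Fold enrichment deposited for the peak in each WT library (y axis, linear, not scaled between libraries) at the common regions of Greb1, Esr1, Tnfsf11 and Pgr, numbered in chromosome order on the x axis. Red marks ERα, blue PR, circles replicate 1 and squares replicate 2; at Greb1 the ERα points reach 20.2 in a region where PR stands at 7.91 and 8.68, and at Tnfsf11 both PR points lie above both ERα points.

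Across 12 genes of the progesterone paracrine list, 3 had an ERα-only region (against 32.6% of all coding genes), 10 a PR-only region (83.3%, against 61.5%) and 6 a common region. Among the 20000 strongest peaks of each list the order was the reverse, with 4 genes linked to an ERα-only and 2 to a PR-only region, against 35.0% and 39.7% of all coding genes. The member linked to an ERα-only and no PR-only region was Fgf10, a growth factor of stromal cells. Elf5, a transcription factor of alveolar cells, and Cxcl12, a chemokine, had 1 ERα-only and 3 PR-only regions each. Among 22 estrogen response genes 11 had an ERα-only region (against 32.6% of all coding genes), 17 a PR-only region (77.3%, against 61.5%) and 16 a common region (72.7%, against 66.1%). Irs1, an adaptor of insulin and IGF receptors, had the most ERα-only regions (4, with 3 PR-only), followed by Greb1 and Igfbp4, a binding protein of IGF (2, with 1 PR-only). Igf1r, the IGF-1 receptor, had 8 PR-only and 1 ERα-only region, and Myb, a transcription factor induced by estrogen in breast cells, 6 and none. Nrip1, a corepressor that estrogen induces, had 5 PR-only and 1 ERα-only region, or 4 and 2 among the 20000 strongest peaks. The peaks over 1 of its promoter windows had folds of 12.2 and 9.38 for ERα and 2.56 and 4.09 for PR. Another Nrip1 window had the same values but no peak of PR replicate 1. The promoter and the region counts of Nrip1 thus leaned to different receptors.

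Genes induced by progestins and glucocorticoids in many tissues had high counts of every class. All 17 had a common region (against 66.1% of all coding genes), 16 a PR-only region (94.1%, against 61.5%) and 12 an ERα-only region (70.6%, against 32.6%). Fkbp5, a cochaperone of steroid receptors, had 10 PR-only, no ERα-only and 6 common regions. Zbtb16, a zinc finger factor induced by progestins, had 8 PR-only, 2 ERα-only and 12 common regions. The Zbtb16 region chr9:48723476-48724270 had folds of 8.14 and 6.47 for ERα and 17.2 and 19.8 for PR. Pdk4, a kinase that restrains pyruvate use, had more ERα-only (4) than PR-only (2) regions.

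Genes of epithelial identity were more often linked to PR-only than to ERα-only regions, as were coding genes in general (61.5% against 32.6%). In the luminal epithelial list 11 of 12 genes had a PR-only region (91.7%) and 4 an ERα-only region (33.3%, near that background). All 12 had a common region, against 66.1% of all coding genes. With the 20000 strongest peaks 10 had a PR-only and 4 an ERα-only region, against 39.7% and 35.0% of all coding genes, and without PR replicate 2 ERα-only regions were linked to 9, against 52.8%. The receptor peaks around these genes numbered 133 and 109 for ERα and 193 and 223 for PR. Cdh1, which encodes E-cadherin, had 9 PR-only and no ERα-only regions, Ehf, an epithelial ETS factor, 5 and none, and Cldn3, a tight junction claudin, 8 and 1. Krt8 and Krt18, adjacent luminal keratin genes, shared PR-only regions, the strongest at chr15:102053729-102054168 with 10.5 and 12.0. Of 20 transcription factors that work with the receptors, 18 had a PR-only (90.0%) and 9 an ERα-only region (45.0%), or 13 and 12 with the 20000 strongest peaks. Grhl2, an epithelial factor, had 9 PR-only and no ERα-only regions, and Foxa1, a pioneer factor that opens chromatin for ERα, 6 and none. The first Foxa1 region (chr12:57525209-57525799, 15.1 kb outside the gene) had folds of 11.9 and 14.9 for PR. Basal and myoepithelial genes gave 13 of 14 with a PR-only (92.9%) and 5 with an ERα-only region (35.7%), or 8 and 6 with the 20000 strongest peaks. Mylk, the kinase of smooth muscle myosin, had 6 and 1.

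Fat-cell genes were more often linked to ERα-only regions. Of 14 adipocyte genes, 13 had an ERα-only region (92.9%, against 32.6% of all coding genes) and 8 a PR-only region (57.1%, against 61.5%). In the deposited lists it was the only one of 15 lists with more genes linked to ERα-only than to PR-only regions. Among the 20000 strongest peaks 4 lists were so, with 11 against 10 adipocyte, 18 against 15 ribosomal protein, 6 against 5 luminal progenitor and 4 against 2 paracrine genes. An ERα-only and no PR-only region was linked to 6 of the 14 (background 6.65%), and the reverse to 1, Cidec, a lipid droplet protein. Peaks around the list numbered 193 and 153 for ERα and 131 and 163 for PR, so the replicates overlapped on that measure. Pparg, the master factor of fat cells, had 7 ERα-only, 2 PR-only and 3 common regions. Its first ERα-only region, chr6:115511119-115511886, had folds of 7.53 and 6.34. Lep, which encodes leptin, had 3 ERα-only and no PR-only regions, the first at chr6:29043601-29044408 with 12.0 and 5.52. Ucp1, the uncoupling protein of brown fat, had 3 and none. Adipoq, Plin1, a lipid droplet perilipin, and Lpl, the lipoprotein lipase, had 2 and none each. Other members besides Cidec had more PR-only regions. Plin4 had 3 ERα-only and 6 PR-only regions, Cidea 1 and 4, and Fabp4 and Retn 1 and 2 each. Lipe had 2 of each class. All 14 genes had a common region, against 66.1% of all coding genes. The ERα-only region over the start of Adipoq, chr16:23146271-23146581, covers nearly the whole Adipoq window printed above, with folds of 2.75 and 4.41. Over the 14 promoter windows of the list 10, 3, 0 and 3 had a peak in ERα replicates 1 and 2 and PR replicates 1 and 2, so ERα replicate 1 stood apart and ERα replicate 2 and PR replicate 2 had equal counts. Of all promoter windows, 39.9%, 37.7%, 29.1% and 45.2% had a peak in these libraries, in the same order. Only the count of ERα replicate 1 was above that background. Slc2a4, the insulin-responsive glucose transporter, shares its region with its neighbour Cldn7, a claudin of the luminal list.

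The ERα-only count for fat-cell genes was 11 of 14 with the 20000 strongest peaks (35.0% of all coding genes), where 10 had a PR-only region (39.7%). It was 11 with −log10 q of at least 1.3 (26.7%) and 11 with −log10 p of at least 5 (21.3%). It was 12 with scaled coverage (28.7%), 11 with links within 10 kb (16.1%) and 13 within 100 kb (46.3%). Leaving out any 1 library gave 14, but the share of all coding genes then rose to 78.5% and 74.9% without ERα replicates 1 and 2, and to 37.5% and 52.8% without PR replicates 1 and 2. Without a PR library, 14 also had a PR-only region, against 82.8% and 81.4% of all coding genes. In the Y541S glands, 22 and 19 of the 30 ERα-only regions at adipocyte genes had an ERα peak (73.3% and 63.3%), near the 75.5% and 66.8% of all ERα-only regions, and 4 and 6 had a PR peak. Of the 39 PR-only regions at luminal epithelial genes, 38 and 33 had a PR peak (97.4% and 84.6%, against 94.4% and 84.0% of all PR-only regions) and 11 and 11 an ERα peak. How much fat, epithelium or stroma each gland held was not measured, and the part of tissue composition in these counts was not tested.

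**Figure D5:**
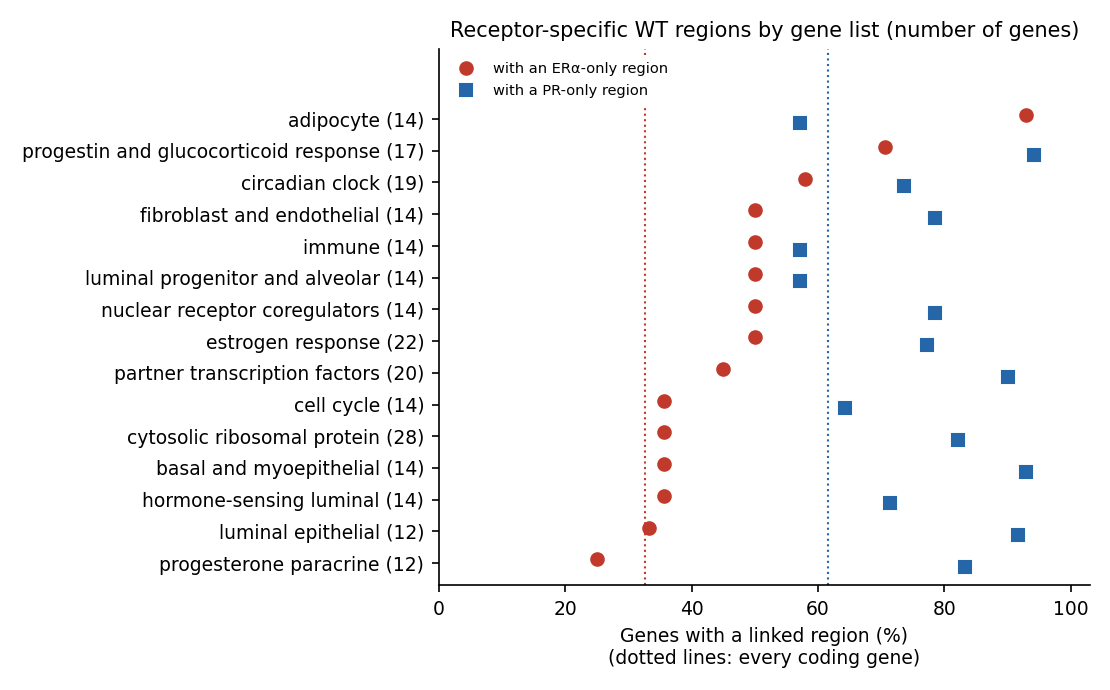
Each row is a gene list, with the number of its genes in parentheses, and points give the percentage of genes with an ERα-only (red circle) or PR-only (blue square) WT region within 50 kb. Dotted lines mark the share of all coding genes, 32.6% and 61.5%; the adipocyte list stands at 92.9% and 57.1%, with its red point to the right of the blue.

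The other lists stood between these, beside 32.6% of all coding genes with an ERα-only and 61.5% with a PR-only region. Luminal progenitor and alveolar genes and immune genes, with 7 and 8 of 14 each (57.1% for PR-only), had shares above the background for ERα-only and below it for PR-only regions, as fat-cell genes did. Circadian clock genes had 11 and 14 of 19 (57.9% and 73.7%), and fibroblast and endothelial genes and nuclear receptor coregulators 7 and 11 of 14 each (78.6% for PR-only). Nearer to the background for ERα-only regions were hormone-sensing luminal genes with 5 and 10 of 14 (35.7% and 71.4%), cell cycle genes with 5 and 9 of 14 (35.7% and 64.3%) and cytosolic ribosomal protein genes with 10 and 23 of 28 (35.7% and 82.1%). All 28 ribosomal genes had a common region, against 66.1% of all coding genes. Of their 22 promoter windows, 22, 22, 20 and 21 had a peak in ERα replicates 1 and 2 and PR replicates 1 and 2. Over all promoter windows the shares were 39.9%, 37.7%, 29.1% and 45.2%. Peaks of all 4 libraries covered 19 of the 22, against 22.2% of all windows. All 19 clock genes had a common region as well. At the promoter of Per1, a repressor of the clock that steroids induce, the folds were 2.63 and 2.46 for ERα against 7.04 and 5.45 for PR. Lists were short and neighbouring genes share regions, so these are counts beside the background and no more.

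Some genes carried many regions of 1 receptor alone. Aff3, a nuclear protein of the AF4 family, Cped1 and Med12l had 6 ERα-only and no PR-only regions each. Ing3, a subunit of a histone acetyltransferase complex next to Cped1, and the neighbouring carbonic anhydrase genes Car1 and Car3 had 5 each. Around Car3 the libraries had 7, 11, 0 and 2 peaks in ERα replicates 1 and 2 and PR replicates 1 and 2, so that both ERα counts were above both PR counts. Its first region, chr3:14832480-14833146, lay 30.7 kb outside Car3 and had ERα folds of 12.9 and 7.38. The reverse was found for Iqgap2, a scaffold protein, with 16 PR-only and no ERα-only regions, Naaladl2 with 14, Vti1a, a vesicle SNARE, and Bmpr1b, a BMP receptor, with 13 each, and Shroom3, a cell shape regulator, and Macrod2 with 12 each. Around Bmpr1b the libraries had 7, 6, 24 and 26 peaks. Its first region, chr3:142130855-142131392, had PR folds of 8.34 and 10.9. These genes are long, from 265 kb for Iqgap2 to 1998 kb for Macrod2, and were chosen for this pattern, which is therefore a description.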

How the data were processed

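Per the labels' protocols, fixed chromatin of the glands was sheared to 300 to 500 bp, and 30 µg of it was precipitated with 4 µg of antibody to ERα or PR. The authors deposited 1 list of peaks for each library. Coordinates are those of mm10, which the submitters' processing notes name. The aligner and the peak caller are not given in the sources used here. For every peak the authors deposited a whole-number score, a fold enrichment (a ratio of summit coverage to local expectation), a −log10 p of at least 2 and a −log10 q. The deposited values were used to rank, filter and describe peaks, because nothing scales them between libraries.

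Peaks sharing at least 1 bp were merged. Whole-number coverage at each summit was recovered from the deposited fold and −log10 p to within 0.0001, for 99.9956% of peaks or more in every list, and the 0.001 quantile of the local expectation was taken as background coverage. Region midpoints and peak summits were placed relative to 21887 coding genes of a RefSeq table (GRCm38.p6). Library values were compared with two-sided exact permutation tests over 6 arrangements, which cannot give a p below 0.33. Each p-value is the share of arrangements of the receptor labels, over these libraries alone, with a difference in means at least as large. The labels give replicate numbers but no shared animal or day; a code in the list names is shared within a replicate number, so values within each replicate are given too. Wilson intervals (95%) cover counting error only. Region classes, coverage recovery and the permutation tests were tested on simulated data. Python 3.11.15, numpy 2.4.6, pandas 2.3.3 and scipy 1.17.1 were used.

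The comparison, the 15 gene lists (242 entries for 227 genes, all matched, 1 by synonym) and the settings were chosen with earlier results of these data known. Named genes were Esr1, Pgr, Greb1, Areg, Tnfsf11 and Wnt4; the genes closest to the 10 ERα-only, 10 PR-only and 6 common regions with the best worst rank; in each list the up to 3 members with most ERα-only and most PR-only regions; and the 6 genes with most regions of 1 receptor and 0 of the other, in each direction. Cidec, Adipoq, Plin1, Lpl, Fabp4, Retn, Krt8, Krt18, Slc2a4, Per1, Nrip1 and Mt1 as examples, where outside that rule, were picked with their values in view. The settings tried were −log10 q of at least 1.3, −log10 p of at least 5, the 20000 strongest peaks, scaled coverage, each library left out, each replicate alone, a replicate block, summits with 150 bp on each side, a gene-end window of 5 kb and links within 10 or 100 kb.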

Additional observations from a re-analysis of the deposited data

How the results depend on the processing

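ERα peaks were more often at gene ends and less often outside genes than PR peaks in every setting listed above, and the differences at WT regions in the Y541S libraries kept their signs. The 100 strongest peaks of each list did not follow this. Outside genes lay 60% and 57% of them for ERα against 49% and 52% for PR, and gene ends held 3% to 4% in every library. The difference in median peak width turned to 2.00 bp within replicate 1. No value of list length exists for the 20000 strongest peaks, which are equal by construction. Counts of regions present in 1 receptor alone depend on thresholds and on single libraries, and depth limits what an absent peak means. Counts changed by more than 1.5 times, and shares beyond their counting interval, in these settings. With −log10 p of at least 5 there were 3200 ERα-only and 6751 common regions and 4670 genes with an ERα-only region. With the 20000 strongest peaks there were 8268 PR-only and 2637 common regions, and 8687 and 4917 genes with a PR-only and a common region. Within replicate 1 there were 46278 ERα-only, 56516 PR-only and 25654 common regions and 17101 genes with an ERα-only region; within replicate 2 there were 39433, 69286, 23576 and 17339. With links within 10 kb 3534 genes had an ERα-only and 7807 a PR-only region. The gene-end share of ERα-only regions was 30.2% with the 20000 strongest peaks, 14.0% and 9.06% within replicates 1 and 2, 14.6% with summits and 150 bp on each side, and 25.1% with a 5 kb window. That of PR-only regions was 5.03% with −log10 p of at least 5, 3.75% with the 20000 strongest peaks, 5.83% and 7.97% within replicates 1 and 2, 5.34% with summits and 19.1% with a 5 kb window. With 1 library left out, as ranges over all such settings, ERα-only regions numbered 6392 to 36945, PR-only regions 20691 to 55976 and common regions 14486 to 21873. The gene-end share of ERα-only regions was then 8.62% to 23.4% and that of PR-only regions 5.07% to 6.83%, and genes with an ERα-only region numbered 8197 to 17177. With the replicate number as a block (4 arrangements, smallest exact p 0.5) the differences were -0.36 for log2 peak number, 5.19 points at gene ends, -2.65 points outside genes and -34.0 bp in width, with exact permutation p = 0.5, 0.5, 0.5 and 1.0, and 42.3 and -63.4 points for the Y541S overlaps, with exact p = 0.5 each. Deviations of same-numbered ERα and PR libraries correlated at 0.19 over 13660 common regions, and no label pairs them, although the names of the deposited lists carry a code that libraries of the same replicate number share. Of 3276 alternative values for single genes and lists, 1723 stayed within 1.5 times and 1553 moved further.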
